A study of Mus musculus with 3 samples.

Results

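The genes described here are 150 solute carrier genes of mouse macrophages, taken as the protein-coding genes whose symbol begins with Slc and a number and whose mean level over 3 libraries was at least 1 TPM. TPM is a length-scaled share of a library. They were chosen by that mean from 371 protein-coding Slc genes, of 55536 annotated genes in the series. A further 212 Slc genes were under 1 TPM, and 9 were left out by name: Slc2a1, Slc7a2, Slc7a11, Slc11a1, Slc11a2, Slc16a1, Slc16a3, Slc38a9 and Slc40a1. Because the mean TPM selected the genes, their levels are given as a description with no test. Of the 150 genes, 147 encode carriers. The other 3 only share the symbol: Slc9a3r1 encodes the scaffold protein NHERF1, Slc4a1ap the protein kanadaptin, and Slc7a6os a gene on the opposite strand beside Slc7a6.

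The libraries held total RNA, depleted of ribosomal RNA, of the cytosol of C57BL/6J macrophages. These are primary cells grown from bone marrow. All 3 cultures had been given lipid A, the Toll-like receptor 4 agonist of bacterial lipopolysaccharide, at 100 ng/ml for 60 min, and are called replicates 1, 2 and 3. Sex and age were not collected, the 3 share 1 donor entry that names the strain, and no source says that they came from separate mice, so their spread may be technical. There was 1 group, and unstimulated cells and nuclear RNA were not analysed here.

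Annotated genes held 63944236, 71989793 and 69305836 expected counts in replicates 1, 2 and 3. Coding genes took 32.7, 21.6 and 23.6% of TPM and 7SL RNA, a short cytosolic noncoding RNA, took 57.2, 69.6 and 62.2%, so TPM of most messages fell in the order of replicates 1, 3 and 2. That order held for 138 of the 150 genes and for 84.6% of 9110 nuclear-encoded protein-coding genes of at least 1 TPM, called expressed coding genes below. All 8 macrophage markers were at 1 TPM or more, with summed levels from 4785 to 9462 TPM. Of the 42 markers of other cell types, 6 reached 1 TPM. They were the neutrophil genes S100a8, S100a9 and Ngp, at means of 10.1, 15.9 and 1.92 TPM, Ighm of B cells at 3.21 TPM, Batf3 at 1.25 TPM and Kdr at 2.28 TPM. No T cell, NK cell, erythroid or mast cell marker did, and 4 of 7 erythroid markers were listed at 0.

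Solute carriers are membrane proteins that move ions, nutrients and metabolites across the plasma membrane and the membranes of organelles, by facilitated diffusion or by coupling to an ion gradient. Their numbered families group genes by sequence, and most families share a kind of substrate. In macrophages they feed amino acids and sugars into the cell, carry the products of digestion out of the lysosome, hold the cytosolic levels of zinc, copper and iron, and link mitochondrial metabolism to the cytosol. Most are made on ribosomes at the endoplasmic reticulum, whereas most of the Slc25 family is made on cytosolic ribosomes and imported into mitochondria.

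The 2 ADP/ATP carrier genes of the set, Slc25a4 and Slc25a5, show why related members could be counted apart. Their coding sequences in the GENCODE M21 transcripts (GRCm38) were both 894 bases long and 77.4% identical, and the longest run of identical bases was 20. The first 120 coding bases are shown 5′ to 3′, with the 26 bases that differ in capitals.
Slc25a4: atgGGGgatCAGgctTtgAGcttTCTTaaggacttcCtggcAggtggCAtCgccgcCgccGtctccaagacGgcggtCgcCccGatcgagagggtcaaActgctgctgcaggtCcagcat
Slc25a5: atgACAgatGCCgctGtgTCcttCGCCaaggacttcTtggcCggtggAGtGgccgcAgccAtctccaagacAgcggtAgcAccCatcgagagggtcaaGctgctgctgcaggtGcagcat

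For 3 other members the most abundant transcript was annotated as a retained intron. Slc52a2, a riboflavin carrier gene, was near the threshold at 1.44 TPM on average, and its leading transcript Slc52a2-202, which keeps 2 whole introns of 92 and 118 bases, held 61.8, 58.5 and 54.4% of it in replicates 1, 2 and 3. The other 2 genes were above 5 TPM and kept part of an intron, and the intron's last 60 bases are shown in capitals, ahead of the first 30 bases of the next exon. In the fatty acid transport protein gene Slc27a1 (chr8:71568882-71587302, plus strand), transcript Slc27a1-205 begins inside an intron of 8515 bases of the coding transcript Slc27a1-201 and keeps its last 191 bases. Slc27a1-202 begins inside an intron of 395 bases and keeps its last 94. In the nucleotide sugar carrier gene Slc35b4 (chr6:34153380-34177111, minus strand), Slc35b4-204 begins inside an intron of 199 bases and keeps its last 93. The whole transcripts are 3207, 2484 and 2320 bases long, so the intron part of each is small. Each stretch ends in AG, the usual end of an intron.
Slc27a1-205: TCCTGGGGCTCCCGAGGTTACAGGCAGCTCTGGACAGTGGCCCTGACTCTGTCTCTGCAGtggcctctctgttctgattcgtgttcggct
Slc27a1-202: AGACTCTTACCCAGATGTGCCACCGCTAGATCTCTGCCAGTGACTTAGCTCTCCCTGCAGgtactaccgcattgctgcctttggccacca
Slc35b4-204: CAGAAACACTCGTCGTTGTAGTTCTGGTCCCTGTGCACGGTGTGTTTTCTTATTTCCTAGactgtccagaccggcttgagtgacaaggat

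Promoters of 300 bases, from 250 before to 50 after the start of transcription, were in a RefSeq table (GRCm38.p6) for 115 of the 150 genes and were searched on both strands for 4 motifs, none of which contains another, though matches may share bases. The E-box CACGTG, bound by basic helix-loop-helix factors that include the lysosomal regulators Tfeb and Tfe3, was in the promoters of 23 of the 115 genes (20.0%). Counted per gene in the same way, it was in 12.9% of the 7297 expressed coding genes in the table and in 8.09% of all 27025 genes. Counted per single promoter, it was in 7.15% of all 32851. Among the 23 were the phosphate carrier gene Slc20a1 and the lysosomal amino acid carrier gene Slc36a1, each with 2 copies, shown with the E-boxes in capitals.
Slc20a1 (chr2:129198523-129198822, plus strand): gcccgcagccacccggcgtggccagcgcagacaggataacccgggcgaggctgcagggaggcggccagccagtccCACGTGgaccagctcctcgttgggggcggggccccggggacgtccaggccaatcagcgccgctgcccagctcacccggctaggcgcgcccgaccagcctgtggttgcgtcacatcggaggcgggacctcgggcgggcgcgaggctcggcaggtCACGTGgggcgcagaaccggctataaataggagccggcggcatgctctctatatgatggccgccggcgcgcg
Slc36a1 (chr11:55204090-55204389, plus strand): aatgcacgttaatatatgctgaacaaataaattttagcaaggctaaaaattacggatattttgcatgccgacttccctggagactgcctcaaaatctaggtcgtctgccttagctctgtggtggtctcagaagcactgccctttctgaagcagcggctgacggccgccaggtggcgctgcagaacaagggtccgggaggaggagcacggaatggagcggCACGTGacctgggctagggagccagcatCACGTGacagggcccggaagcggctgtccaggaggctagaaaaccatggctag

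The core of the metal response element, TGCNCNC, bound by the zinc-sensing factor Mtf1, was in the promoters of 73 of the 115 genes (63.5%). It was in those of 63.6% of the expressed coding genes and 53.6% of all genes, and in 51.0% of single promoters. It was in 11 of the 14 zinc carrier genes of families Slc30 and Slc39 in the table. The plasma membrane zinc exporter gene Slc30a1 had 2 copies near its start, in capitals below on the strand of the gene, where they read in reverse. The AP-1 motif TGANTCA was in 9 genes (7.83%), against 6.03% of expressed coding genes, 8.97% of all genes and 7.81% of single promoters. The cyclic AMP response element TGACGTCA was in 3 (2.61%), against 3.86% of expressed coding genes, 2.03% of all genes and 1.79% of single promoters. These matches are letters in a window and say nothing of binding.
Slc30a1 (chr1:191906531-191906830, plus strand): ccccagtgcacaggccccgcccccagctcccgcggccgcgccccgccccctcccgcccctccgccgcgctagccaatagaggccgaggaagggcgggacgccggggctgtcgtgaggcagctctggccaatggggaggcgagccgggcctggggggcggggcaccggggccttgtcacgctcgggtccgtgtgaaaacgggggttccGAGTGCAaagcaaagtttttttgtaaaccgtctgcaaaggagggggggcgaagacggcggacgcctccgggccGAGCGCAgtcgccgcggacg

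The median level of the 150 genes was 8.66, 4.96 and 6.60 TPM in replicates 1, 2 and 3. The median over all expressed coding genes was 9.06, 5.74 and 6.85 TPM, so a typical carrier stood a little under a typical message in each library. Of the 150 genes, 91 reached 5 TPM, 52 reached 10, 23 reached 20, 9 reached 50 and 4 reached 100 TPM. The shares past 10 and 100 TPM were 34.7% and 2.67%, against 40.0% and 4.46% of expressed coding genes. In all, 9 genes stood among the highest 911 expressed coding genes. Together the 150 held 2738, 1614 and 2037 TPM, which was 0.838, 0.746 and 0.863% of the TPM of coding genes. The 6 highest held 32.7, 33.7 and 34.3% of this sum. At the threshold, the last genes inside were Slc19a2, Slc22a4 and Slc17a9 at 1.14, 1.11 and 1.07 TPM, and the first outside were Slc19a1, Slc22a18 and Slc5a3 at 0.983, 0.917 and 0.880 TPM. In 142 of the genes every library was at 1 TPM or more, and the fewest expected counts of any gene in a library were 121.

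**Figure D1:**
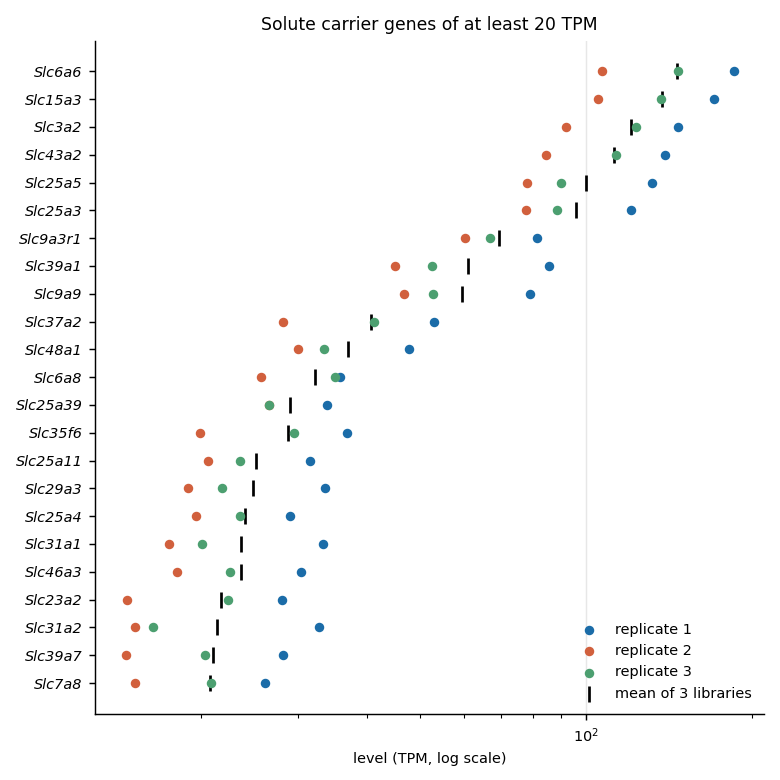
Level of the 23 solute carrier genes of at least 20 TPM, in TPM on a log axis, with 1 point per library and a bar at the mean of the 3. Replicate 1 is highest throughout and the leading genes, Slc6a6 to Slc43a2, have means above 100 TPM.

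Carriers of amino acids formed the largest substrate class by level, with 17 genes and 24.7, 24.9 and 26.5% of the summed TPM of the 150 in replicates 1, 2 and 3. Their mean sum was 538.8 TPM, against 438.2 TPM for the mitochondrial carriers of family Slc25. The class counts Slc3a2, a subunit described below, whose mean of 120.5 TPM was larger than that lead, so the first place depended on counting it. The highest of the 150 genes, which do not include those left out by name, was Slc6a6, the sodium- and chloride-coupled taurine carrier. It stood at 185, 107 and 147 TPM (146 ± 39.3, SD, n = 3). It ranked 267 among the 9110 expressed coding genes. Slc6a8, the creatine carrier of the same family, stood at 35.8, 25.6 and 35.03 TPM, and the other 19 genes of that family were under 1 TPM. Slc43a2, a facilitative carrier of large neutral amino acids, held 139, 84.6 and 113 TPM, while its relative Slc43a3 held 2.83, 1.39 and 2.70 TPM. Shares of the same kind are given for the larger substrate classes below, since the TPM of most messages fell in the order of replicates 1, 3 and 2.

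Slc3a2 encodes CD98 heavy chain, the subunit that brings several light chains of family Slc7 to the plasma membrane. Its level was 147, 91.7 and 123 TPM. Of the 5 light chains listed, Slc7a8 was highest at 26.1, 15.1 and 20.9 TPM, followed by Slc7a7, the cationic and neutral exchanger of macrophages, at 13.4, 6.95 and 8.80 TPM and Slc7a6 at 1.54, 0.790 and 1.23 TPM. Slc7a5, the main light chain of dividing cells, was under the threshold at 0.510, 0.350 and 0.660 TPM, and Slc7a10 was listed at 0. The heavy chain therefore stood above the summed light chains in each library, by 3.53, 3.95 and 3.90 times (3.80 ± 0.227, SD, n = 3). With Slc7a11, the cystine exchanger that also pairs with it, in the sum, the ratio was 3.16, 3.56 and 3.65. Slc7a8 exceeded Slc7a7 by 1.96, 2.18 and 2.37 times.

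The sodium-coupled neutral amino acid carriers Slc38a10, Slc38a1, Slc38a2 and Slc38a7 lay close together, at means of 17.4, 17.2, 14.6 and 13.6 TPM with SDs of 4.34 to 5.10 that hold the shift shared by most messages. Slc38a10 and Slc38a1 stood above Slc38a7 in each library. Slc38a1 stood above Slc38a10 in replicates 1 and 2 and below it in replicate 3, and Slc38a2 lay above Slc38a7 in replicates 1 and 2 and below it in replicate 3. Slc38a6 was the lowest of the family at 8.04 TPM. Slc38a1 and Slc38a2 lie 44478 bases apart on chromosome 15. Slc1a5, the glutamine exchanger, was low at 2.88, 1.25 and 2.42 TPM, and the cationic amino acid carrier Slc7a1 at 1.93, 1.32 and 2.34 TPM. Slc16a10, an aromatic amino acid carrier of the monocarboxylate family, was higher at 18.9, 9.71 and 13.3 TPM.

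Carriers of the lysosome and endosome had 11 of 13 listed genes in the set, with summed levels of 435, 262 and 318 TPM. Their levels were spread widely, from 2 genes above 50 TPM to 1 near the threshold. Slc15a3, which exports peptides and bacterial muropeptides from endolysosomes, held 171, 105 and 136 TPM. Its relative Slc15a4, which serves endosomal Toll-like receptor signalling, held 15.7, 11.4 and 8.67 TPM, and Slc15a3 exceeded it by 10.8, 9.20 and 15.7 times. Slc9a9, an endosomal sodium-proton exchanger, followed at 79.1, 46.8 and 52.6 TPM. Slc48a1, the heme carrier that recovers heme from digested red cells, stood at 47.7, 29.9 and 33.3 TPM, the nucleoside carrier Slc29a3 at 33.6, 18.9 and 21.8 TPM, and Slc46a3 at 30.3, 18.03 and 22.5 TPM. Slc38a7, Slc15a4, Slc36a1, Slc17a5, the sialic acid carrier, and Slc36a4 lay between 7.60 and 13.6 TPM on average, and Slc17a9 at 1.07 TPM. Slc7a14 was listed near 0, with a mean of 0.00333 TPM, and Slc66a1 was not matched in the annotation.

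Mitochondrial carriers of family Slc25 were the largest family, with 33 of 47 genes in the set and 20.2, 22.1 and 19.9% of the summed TPM (20.7 ± 1.22%, SD, n = 3). Slc25a5, an ADP/ATP carrier, held 132, 78.1 and 89.9 TPM, and Slc25a3, the phosphate carrier, 121, 77.7 and 88.6 TPM. Slc25a4, the ADP/ATP carrier shown above beside Slc25a5, stood at 28.97, 19.5 and 23.5 TPM, and Slc25a5 exceeded it by 4.55, 3.996 and 3.83 times. A transcribed pseudogene, Slc25a5-ps, was listed at 0, 0 and 0 TPM, so reads of a similar copy may be split in a way these values cannot show. Slc25a39, which carries glutathione into mitochondria, stood at 33.9, 26.5 and 26.6 TPM and the oxoglutarate carrier Slc25a11 at 31.5, 20.6 and 23.5 TPM. Slc25a51, which carries NAD, and the citrate carrier Slc25a1 had means of 16.3 and 15.6 TPM. The iron carrier Slc25a37 was at 9.09, 4.38 and 4.03 TPM and its relative Slc25a28 at 5.25, 4.38 and 4.83 TPM. The median of the family was 5.83 TPM and its lowest gene was Slc25a23 at 1.15 TPM.

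Carriers of metals numbered 22 genes and held 12.7, 11.7 and 11.4% of the summed TPM. Family Slc39, which moves zinc into the cytosol, had 10 of 14 genes in the set, and family Slc30, which moves zinc out of the cytosol, 6 of 10. Slc39a1, a plasma membrane zinc importer, held 85.5, 45.0 and 52.5 TPM, which was 1.06, 1.01 and 0.867 times the other 9 Slc39 genes together. Its annotated pseudogene Slc39a1-ps was listed at 0.06, 0.1 and 0.07 TPM. Slc39a7, which releases zinc from the endoplasmic reticulum, followed at 28.1, 14.6 and 20.3 TPM, and Slc39a14 was lowest at 2.05, 0.990 and 1.48 TPM. Slc39a8, known as an NF-kB target in macrophages, stood at 3.61, 2.17 and 3.22 TPM. Among exporters Slc30a1, whose promoter is shown above, held 16.0, 8.68 and 11.7 TPM and Slc30a5 of the Golgi 14.2, 7.53 and 11.3 TPM, and Slc30a4 was lowest at 1.69 TPM on average. Summed importers exceeded summed exporters by 3.11, 3.10 and 2.94 times (3.05 ± 0.0971, SD, n = 3).

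**Figure D2:**
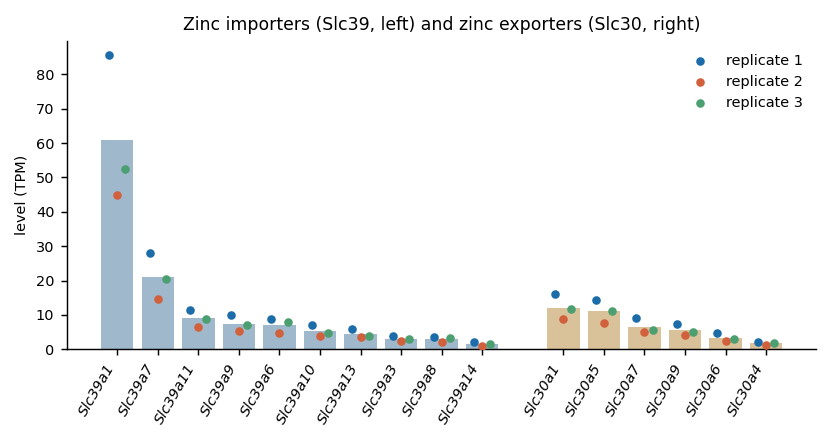
Level in TPM of the 10 Slc39 and 6 Slc30 genes, with bars at the mean of 3 libraries and 1 point per library. Slc39a1 stands at 61.0 TPM on average, and no Slc30 gene exceeds a mean of 12.1 TPM.

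Both copper carriers were in the set at like levels. Slc31a1, the plasma membrane copper importer, held 33.3, 17.5 and 20.1 TPM, and Slc31a2, found on endosomes, 32.7, 15.2 and 16.3 TPM, a ratio of 1.02, 1.15 and 1.23. They lie 62315 bases apart on the same strand of chromosome 4. All 3 magnesium carriers of family Slc41 were in the set at means of 1.55 to 7.36 TPM.

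Sugar and sugar phosphate carriers numbered 10 genes and held 4.95, 4.50 and 4.59% of the summed TPM. All 4 sugar phosphate exchangers of family Slc37 were in the set. Slc37a2, which is known to be high in macrophages, led at 52.9, 28.1 and 41.2 TPM, while Slc37a4, the glucose-6-phosphate carrier of the endoplasmic reticulum, had 2.66, 1.56 and 1.97 TPM. Among glucose and hexose carriers apart from Slc2a1, the lysosomal Slc2a6 led at 26.8, 11.3 and 10.1 TPM, and Slc2a3 was lowest at 1.69, 0.870 and 1.19 TPM. Slc45a4 stood at 22.9, 13.1 and 17.2 TPM.

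Nucleoside and nucleotide sugar carriers numbered 22 genes and held 9.70, 9.00 and 9.27% of the summed TPM. Family Slc35, many of whose genes feed nucleotide sugars to the Golgi and endoplasmic reticulum, had 19 of 27 genes in the set. Slc35f6 led it at 36.8, 19.9 and 29.5 TPM, and Slc35e2 was lowest at 2.17 TPM on average. Slc29a1, the equilibrative nucleoside carrier of the plasma membrane, stood at 23.5, 11.2 and 13.9 TPM. Its neighbour Slc35b2, which supplies the sulfate donor of the Golgi, lies 17528 bases away on the opposite strand of chromosome 17 and stood at 22.9, 11.7 and 13.99 TPM.

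The 13 carriers of cations held 7.01, 6.67 and 6.63% of the summed TPM, with a median of 6.42 TPM, and the 5 of anions and bicarbonate 1.29, 1.20 and 1.29%, with a median of 4.30 TPM. The sodium-calcium exchanger Slc8a1 held 16.7, 9.09 and 11.0 TPM. Slc12a2, a cation-chloride cotransporter, was the lowest of its family in the set at 2.23 TPM. Of the anion exchangers of family Slc26, Slc26a11 led at 8.86 TPM and Slc26a6 was lowest at 3.16 TPM. Slc20a1, which imports phosphate, stood at 22.6, 8.65 and 20.2 TPM and Slc20a2 at 1.74, 0.970 and 1.5 TPM. Slc16a7, a monocarboxylate carrier, had 23.3, 13.7 and 15.6 TPM, Slc16a6 had 19.9, 11.9 and 18.3 TPM, and Slc16a9 was lowest of its family at 1.77 TPM. The ascorbate carrier Slc23a2 held 28.0, 14.7 and 22.4 TPM. The family of organic cation and anion carriers, Slc22, had 2 of 25 genes in the set, the carnitine carrier Slc22a5 at 1.97 TPM and Slc22a4 at 1.11 TPM. Of the families with more than 1 gene annotated, Slc5, Slc13, Slc14, Slc18, Slc34, Slc47 and Slc51 had none in the set, and both genes of Slc11 were left out by name.

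Spread between the libraries was measured on expected counts scaled with TMM, a scaling on the bulk of genes, as CPM, a depth-scaled count. A chi-square test against library sizes, with Benjamini-Hochberg adjustment over all 13026 genes tested, compared these 3 libraries and no conditions. It treats reads as independent molecules, so its p-values cover counting error only. It was past 0.05 for 125 of the 150 genes (83.3%), against 62.5% of all genes tested, and its power grows with the count. With a ratio of highest to lowest library of at least 2 required as well, 1 gene was called, against 6.65% of all genes tested (866 genes) and 4.08% of the 11557 coding genes among them. That gene was Slc2a6, at 72.9, 46.9 and 36.2 CPM, with a ratio of 2.01 (chi-square adjusted p = 2e-201). The call rests on the ratio: it was 1.99 with the filter on low counts removed, 1.98 in the second transcript table's counts, 1.30 without replicate 1 and 1.56 without replicate 3, each under 2 with the adjusted p still past 0.05. The biological coefficient of variation (BCV), edgeR's estimate of the spread beyond counting error, had a median of 0.107, against 0.122 over all genes tested and 0.113 over coding genes. The trend of the BCV with the count was 0.272 for Slc25a43 at 1.89 CPM and 0.102 for Slc25a4 at 71.0 CPM. It rose again among the most abundant genes, to 0.134 for Slc6a6 at 1419 CPM. Of the 150 genes, 43 (28.7%) lay above the trend for their count, against 19.7% of coding genes. Below 10 TPM, Slc22a4 had the highest BCV of all the genes, 0.273, and Slc24a5 had 0.220, at means of 2.81 and 4.98 CPM.

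The most variable genes of at least 10 TPM did not share a direction. After Slc2a6 came Slc20a1, with a BCV of 0.211, at 87.5, 56.9 and 109 CPM, lowest in replicate 2. Slc31a2 followed at 72.3, 52.8 and 47.6 CPM and Slc38a2 at 125, 120 and 89.1 CPM, both lowest in replicate 3. Slc16a6 was highest in replicate 3, at 83.8, 84.6 and 111 CPM, while Slc29a1, Slc35b2 and Slc44a1, a choline carrier, were highest in replicate 1, with BCVs of 0.122 to 0.125. Among genes of at least 10 TPM the 3 least variable were all mitochondrial carriers: Slc25a11 at 64.0, 66.1 and 62.5 CPM, Slc25a10 at 40.8, 39.9 and 38.5 CPM and Slc25a45 at 34.9, 33.9 and 32.9 CPM, with BCVs of 0.0823 to 0.0831.

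**Figure D3:**
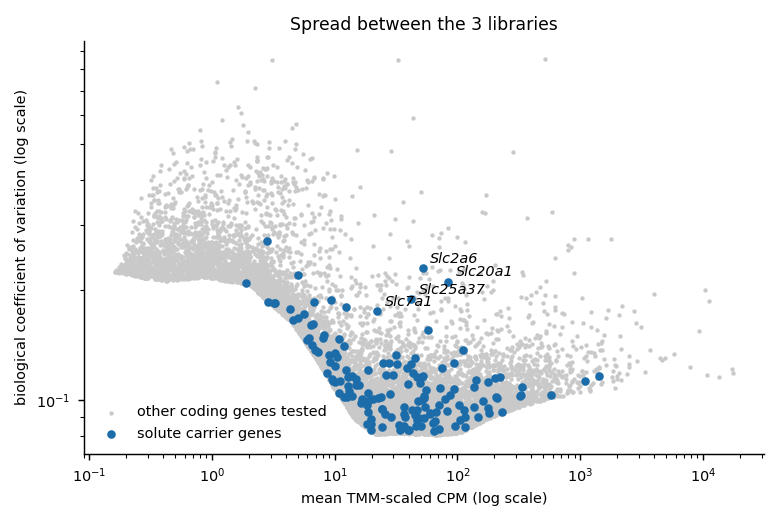
Biological coefficient of variation against mean TMM-scaled CPM, both on log axes, for the 150 solute carrier genes in blue and other coding genes tested in grey. Solute carrier genes lie along the lower edge of the cloud and above it, and among those with more than 50 CPM Slc2a6 and Slc20a1 stand highest at 0.229 and 0.211.

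Replicate 2 set family Slc25 apart from the other carriers in the median. The groups follow the family number, and location was not measured. In TMM-scaled CPM, replicate 2 was the lowest library for 94 of the 150 genes (62.7%), against 30.4% of the expressed coding genes. Of the 114 carriers outside family Slc25, 89 (78.1%) were lowest in replicate 2, and 106 (93.0%) lay below the mean of the other libraries on the log2 scale, against 45.8% of expressed coding genes. Their median log2 difference, replicate 2 minus the mean of replicates 1 and 3, was -0.17, with a range from -0.78 for Slc20a1 to 0.18 for Slc38a2. Of the 33 carriers of family Slc25, most of them mitochondrial, 5 (15.2%) were lowest in replicate 2. Their median difference was 0.03, with a range from -0.14 for Slc25a13 to 0.33 for Slc25a23. Over all expressed coding genes the median difference was 0.02.

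The same sign ran through the other substrate classes. Replicate 2 was lowest for 13 of 17 amino acid carriers, 13 of 19 Slc35 genes, 8 of 10 Slc39 genes, 5 of 6 Slc30 genes and 7 of 11 lysosomal or endolysosomal genes. Slc1a5 at 9.99, 6.80 and 11.0 CPM, Slc28a2, a concentrative nucleoside carrier, at 11.8, 9.57 and 15.7 CPM and Slc27a4 at 31.6, 23.01 and 28.8 CPM were among the furthest. Only 8 of the 114 lay above 0, and they included Slc38a2, Slc39a13, Slc48a1 and Slc30a9, which is placed in mitochondria. Slc8b1, the mitochondrial sodium-calcium exchanger, lay at -0.29 beside the carriers of other membranes. The 3 genes of the set that encode no carrier had differences of 0.16 for Slc9a3r1, 0.05 for Slc7a6os and -0.03 for Slc4a1ap.

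Carriers that lack an Slc symbol, and so are outside the set, were split in the same way. They were read from the same 3 libraries, so they are no independent test of the pattern. The list of these genes also holds some not established as carriers, among them Mtch1, Mtch2 and Unc93b1. Of its 21 genes of at least 1 TPM, the 7 of mitochondria all lay above 0. They ran from 0.06 for Sfxn3 to 0.30 for Mpc1, a pyruvate carrier subunit at 81.1, 105 and 89.6 CPM. The other 14 all lay below 0, as did 45.8% of expressed coding genes. Their values went from -0.25 for the lysosomal Mfsd1, at 317, 246 and 271 CPM, to -0.07 for Spns1. The ranges of these groups did not overlap in TMM-scaled CPM. In TPM rescaled over coding genes all 14 again lay below 0, from -0.34 to -0.12, as did 69.0% of expressed coding genes. In that scaling 4 of the 7 mitochondrial genes lay above 0, and their range, from -0.33 to 0.19, overlapped the others.

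**Figure D4:**
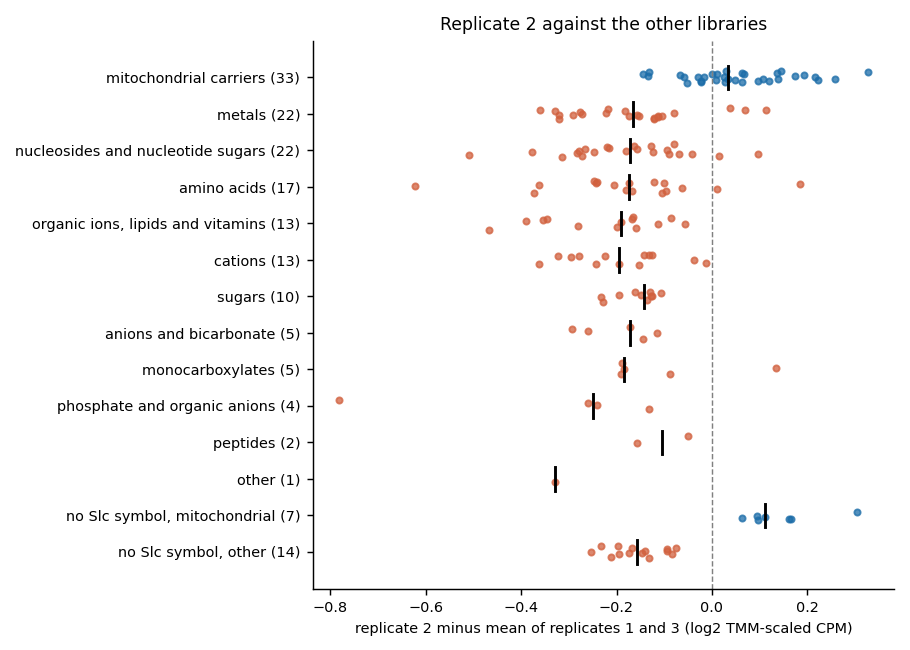
Difference between replicate 2 and the mean of replicates 1 and 3 in log2 TMM-scaled CPM, with 1 point per gene, a bar at each group's median and the number of genes in brackets. The groups listed as mitochondrial (blue) centre at 0.03 with an Slc symbol and 0.11 without, and every other group's median lies below 0.

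The gap between the groups was 0.21 on the log2 scale in TMM-scaled CPM, where the medians of the 33 Slc25 genes and the 114 others are compared. It was 0.21 with DESeq2's size factors, 0.22 in TPM rescaled over coding genes, 0.22 in the second table's counts and 0.22 in that table's rescaled TPM. A factor shared by all genes of a library cancels in this gap. The DESeq2 value was therefore fixed in advance, and rescaled TPM could differ only through gene lengths. The second table is another quantification of the same 3 libraries. The sign of the Slc25 group itself depended on the scaling. In rescaled TPM, which moved the median expressed coding gene to -0.08, the Slc25 median was -0.04 and that of the other carriers -0.26, and 51.1% of expressed coding genes were lowest in replicate 2. These 4 alternatives were chosen after the pattern was seen. Nuclear-retained RNAs were also lowest in replicate 2, as most genes were in deposited TPM. In TPM rescaled over coding genes Malat1 still stood at 1277, 564 and 1366 and Neat1 at 119, 57.2 and 152 in replicates 1, 2 and 3, while Meg3 was listed at 0 throughout. The share of 7SL RNA was highest in replicate 2. The part of these differences between the libraries in the gap was not tested. With 3 libraries of 1 group, what is particular to replicate 2 as a culture and as a library cannot be told apart.

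The transcript table gave 1 leading transcript for most carriers. The leading transcript held a median of 85.2% of a gene's TPM, against 83.9% over expressed coding genes. It was the same in all 3 libraries for 141 of the 150 (94.0%), against 92.4%. It was annotated as protein-coding in 144 (96.0%), against 95.7%. Retained-intron transcripts held at least 20% of the TPM of 7 genes (4.67%), against 5.38% of expressed coding genes. The second transcript table named the same leading transcript in 135 (90.0%), against 91.0%.

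The exceptions of at least 5 TPM were Slc27a1, Slc16a7, Slc35b4, Slc35b1 and Slc25a12. In Slc27a1, the retained-intron transcripts Slc27a1-205 and Slc27a1-202 shown above held 11.9, 6.66 and 10.1 TPM and 9.71, 6.58 and 9.36 TPM, and all transcripts of that class together held 96.6% of the gene. The full-length coding transcript Slc27a1-201 was listed at 0 in each library, and the second table gave 73.8% to the retained-intron class. In Slc35b4, Slc35b4-204 held 7.11, 3.24 and 4.07 TPM against 4.41, 2.64 and 3.28 TPM for the coding Slc35b4-201. Slc35b1, a carrier of the endoplasmic reticulum, had 54.2% of its TPM in Slc35b1-202, annotated for nonsense-mediated decay, but the second table placed Slc35b1-201, the coding form, first. Slc25a12, an aspartate and glutamate carrier, had 60.1% in Slc25a12-207, also annotated for nonsense-mediated decay, and 17.3% in coding transcripts. The leading transcript of Slc16a7, Slc16a7-203, is a processed transcript of 292 bases at 30.3% of the gene, and its coding transcripts together held 69.7%.

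**Figure D5:**
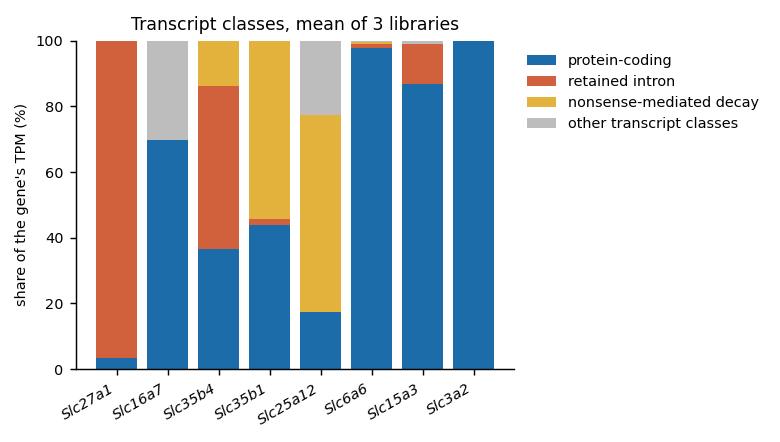
Share of each gene's TPM in 4 classes of annotated transcripts, mean of 3 libraries, for the 5 genes of at least 5 TPM whose leading transcript is not protein-coding and for the 3 highest genes. Transcripts annotated as retained intron hold 96.6% of Slc27a1, whereas Slc6a6 and Slc3a2 are almost all protein-coding.

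The quantifications gave different absolute levels. The second transcript table's TPM, summed per gene, was a median of 0.444 times the gene table's over the 150 genes and 0.444 times over expressed coding genes. Slc30a9 had the highest ratio among genes of at least 5 TPM, 0.978, followed by Slc38a6, Slc35a5, Slc30a7 and Slc25a37 at 0.610 to 0.672. Slc46a3 had the lowest, 0.384, followed by Slc30a5, Slc15a4, Slc10a3 and Slc25a45 at 0.385 to 0.410. In Slc46a3 the gene table's transcripts gave 23.9% to a retained intron and those of the second table gave it 3.93%. The leading transcript also differed between tables for Slc37a2, Slc6a8, Slc38a10, Slc38a1, Slc25a51, Slc35b2, Slc30a7, Slc25a36, Slc25a37 and Slc30a9. For Slc25a51 the gene table's leading transcript held 69.6% of the gene there and 7.48% in the second table.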

How the data were processed

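Per the file headers, the deposited gene and transcript tables hold expected counts, TPM, FPKM and each transcript's percent of its gene, under the column names that RSEM uses. A second deposited transcript table holds estimated counts and TPM under kallisto's column names. The deposited description files name mm10 and GENCODE M21. Which tools and versions were used and whether counting used strand was not given in the sources used here, so overlapping and antisense genes are uncertain. Rows that are not annotated genes held 0.260, 0.0933 and 0.0578% of counts in replicates 1, 2 and 3 and were left out.

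Levels are TPM as deposited by the authors. Expected counts were rounded, passed through filterByExpr, scaled by TMM and given a tagwise BCV in edgeR 4.0.16 (R 4.3.3). The chi-square test was tried on simulated counts that held counting error only, so the trial did not cover spread beyond counting error. Alternatives were DESeq2 1.42.0 size factors, the second table, TPM rescaled to the sum of nuclear-encoded coding genes, FPKM, a pseudocount of 0.1, other minimum levels and each replicate left out. Other work used Python 3.11.15 and pandas 2.3.3. The genes and lists were chosen with earlier results of these data known.

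Genes named were the 30 highest, the highest and lowest of each family of 3 or more, CD98 and lysosomal carriers, extremes of BCV, of isoform use and of the ratio between tables, and listed other genes of at least 20 TPM. Others named, among them the lower copper, phosphate, iron and ion carriers, Slc39a8, Slc1a5, Slc28a2 and the genes of the replicate 2 comparison, were chosen after their values were seen. Some genes that the rule names are not reported here.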

Additional observations from a re-analysis of the deposited data

How the results depend on the processing

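The number of genes stayed between 124 and 167 in the second table, FPKM and rescaled TPM, and was 91 at a minimum of 5 TPM and 250 with no minimum. Their median of 6.74 TPM was 3.98 in the second table, 22.6 in rescaled TPM, 10.9 in FPKM, 11.8 at a minimum of 5 TPM and 2.07 with none. On the log2 scale, Slc3a2 against its light chains was 1.92 and zinc importers against exporters 1.61. In the second table they were 1.77 and 1.37. In rescaled TPM, in FPKM and with a pseudocount of 0.1 they moved by less than their SD. For rescaled TPM and FPKM this was fixed in advance, because a factor shared by all genes of a library cancels in a ratio. The zinc ratio could differ there only through the genes that passed the threshold. With a replicate left out both ratios also moved by less than their SD, but that was fixed in advance, as explained below for single levels. The Slc25 share stayed between 20.0 and 21.2% in the second table, rescaled TPM and FPKM and with each replicate left out. In rescaled TPM and FPKM this share, too, could differ only through the genes that passed the threshold. The 1 gene called between libraries, Slc2a6, became 0 without the count filter, 0 in the second table's counts and from 0 to 1 with a replicate left out, because its ratio fell under 2, while 91 to 127 genes passed the adjusted p alone. In replicate 2, 5 Slc25 genes were lowest in TMM-scaled CPM, 15 in rescaled TPM, 1 in the second table's counts and 13 in its rescaled TPM. The cause was not tested. Of the 150 single levels, 144 moved by more than their SD in the second table. That table's TPM was a median of 0.444 times the gene table's, for these genes and for expressed coding genes. The count of 144 therefore holds a shift shared by most coding genes. None moved by more than its SD when 1 replicate was left out. That result was fixed in advance, because the mean of the libraries kept cannot lie a full SD from the mean of all. No paired analysis was possible because there was 1 group.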

Other observations

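The listed genes outside the Slc symbol, not all of them established carriers, had a median of 12.6 TPM, and 2 of them passed 100 TPM. Ucp2, the uncoupling protein of mitochondria, held 370, 163 and 185 TPM, and Unc93b1, which escorts nucleic acid-sensing Toll-like receptors to endosomes, 191, 106 and 142 TPM. The pyruvate carrier subunit Mpc1 had a mean of 73.1 TPM, the lysosomal Mfsd1 58.7, the cholesterol carrier Npc1 58.0, Mfsd12 52.0, the chloride-proton exchanger Clcn7 41.0, Cln3 34.3, Mtch1 29.5, Mtch2 21.2 and the heme exporter Flvcr1 20.4 TPM. Of the 28 matched genes of this list, 21 reached 1 TPM and 3 were listed at 0.

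Partner subunits of carriers were also measured. Bsg, the chaperone of monocarboxylate carriers, held 91.2, 52.7 and 71.3 TPM and its relative Emb 36.4, 16.9 and 22.6 TPM.

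A list of 11 genes held regulators of carrier genes and also Mt1 and Mt2, which are not regulators, and 10 of the 11 reached 1 TPM. Nfe2l2, the regulator of antioxidant genes, held 199, 124 and 112 TPM, and Bach1, Tfe3 and Atf4 had means of 28.4, 29.3 and 38.6 TPM. The zinc-binding metallothionein genes kept to another order than most messages: Mt2 stood at 34.8, 42.5 and 48.1 TPM, lowest in replicate 1, and Mt1 at 135, 126 and 122 TPM.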
